A study of Homo sapiens with 6 samples.

Results

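The mRNAs of 8 genes, SFPQ, SRRM2, CPSF6, POLR2A, KMT2D, ARID1A, PRRC2A and PRRC2B, were examined for association with FLAG-Angel1 by eCLIP, a sequencing assay of RNA cross-linked to a protein. Members were taken as every cluster of reads that overlapped the interval of 1 of these genes with 1 nt or more on its own strand, in GRCh37 coordinates. This gave 613 of the 205520 clusters listed for all IPs. Of these, 262 of 102843 came from the FLAG-Angel1 IP of replicate 1, 301 of 96960 from that of replicate 2 and 50 of 5717 from the FLAG-only control IP. The genes were grouped as encoding proline-rich nuclear proteins. The proline content of the proteins was not analysed here, and PRRC2A and PRRC2B are best known as cytoplasmic proteins linked to translation, so the group is named below by its 8 genes.

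In eCLIP, UV light cross-links RNA to protein, and the RNA fragments that are pulled down with a given protein (the IP) are sequenced beside a size-matched input that was not pulled down. The series has 6 libraries. FLAG-Angel1 was studied in 2 replicates and the FLAG-only control in 1, each with an IP and an input, and the values analysed were the authors' clusters for the 3 IPs. All were made from HEK293 cells, a human embryonic kidney line, of the Flp-In T-REx type, which carries a single site for inducible constructs. FLAG-Angel1 was tagged at its N terminus and expressed from a tetracycline-regulated promoter at a level the study describes as near that of the endogenous protein. The libraries share induction by tetracycline at 5 ng/mL, which lasted 24 h, and UV light of 254 nm at 400 mJ/cm2. The control libraries carry FLAG-Angel1 as genotype in their labels, whereas the study describes parental cells without a FLAG fusion protein. It also mentions a sample without UV light, which no label marks. Nothing states whether the FLAG-Angel1 replicates came from separate cultures.

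Angel1 is a homolog of the CCR4 deadenylase and has been linked to the decay of mRNAs on which ribosomes stall. Ribosomes form peptide bonds slowly between consecutive prolines, and the factor eIF5A relieves such pauses. Ribosomes that stay stalled are met by quality control pathways that degrade the nascent peptide and the mRNA.

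The authors gave each cluster an enrichment, as a log2 fold of IP over its input, with a P. A cluster was called enriched at a P below 0.05 with a log2 fold above 0. A reproducible peak was a region merged from overlapping clusters of both FLAG-Angel1 replicates that passed a P of 0.001 with a log2 fold above 0. The log2 folds fell on ratios of whole numbers of reads, and these ratios together with the authors' P gave the IP and input reads of single clusters, including 99.9% of the enriched clusters of each FLAG-Angel1 IP and 99.4% of those of the control. The IP libraries came to about 3399000 reads for replicate 1, 2543000 for replicate 2 and 210000 for the control. The inputs were about 723000, 2812000 and 3255000 reads. An input value of 1 may be 1 read or a minimum set by the pipeline. Intervals given for a log2 fold are exact 95% intervals from these reads and intervals for shares are Wilson 95% intervals. Both cover counting error only. The control has 1 library, so no test was made between libraries.

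Clusters in the 8 genes were enriched over input more often than clusters in general in both FLAG-Angel1 IPs. In replicate 1, 189 of 262 clusters were enriched (72.1%, interval 66.4% to 77.2%), against 11.7% of all clusters of that library. In replicate 2, 289 of 301 were enriched (96.0%, interval 93.2% to 97.7%), against 40.7% of all clusters. At a P of 0.001, 121 clusters of replicate 1 (46.2%) and 266 of replicate 2 (88.4%) passed, against 4.22% and 17.0% of all clusters. The median log2 fold over the members was 1.64 in replicate 1 and 2.68 in replicate 2, and over all clusters it was 0.57 and 1.73. In the control, 42 of 50 clusters were enriched (84.0%, interval 71.5% to 91.7%), against 91.8% of all control clusters, and the median log2 fold was 2.60 against 5.20.

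Clusters of these genes rested on many reads, and the number of reads moves with the share that passes a threshold on P. The median IP reads of an enriched cluster were 150 in replicate 1 and 64 in replicate 2, against 76 and 17 over all enriched clusters. The comparison was then limited to clusters with a log2 fold above 0 and at least 20 recovered IP reads, a setting chosen after the data were seen. Reads were recovered for 53047 of 102843 clusters of replicate 1 and 91945 of 96960 of replicate 2. The clusters left out for lack of recovered reads were nearly all not enriched, which can raise the background share. In replicate 1, 189 of 256 were enriched (73.8%) against a background of 37.5%. In replicate 2, the share was 277 of 279 (99.3%) against 97.2%. Nearly all clusters of replicate 2 passed at this minimum, so that the share there could hardly differ between members and background. A minimum also does not make the numbers of reads equal. The median log2 fold at this depth was 1.66 over the members and 1.43 over all clusters in replicate 1, and 2.73 and 2.38 in replicate 2.

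**Figure D1:**
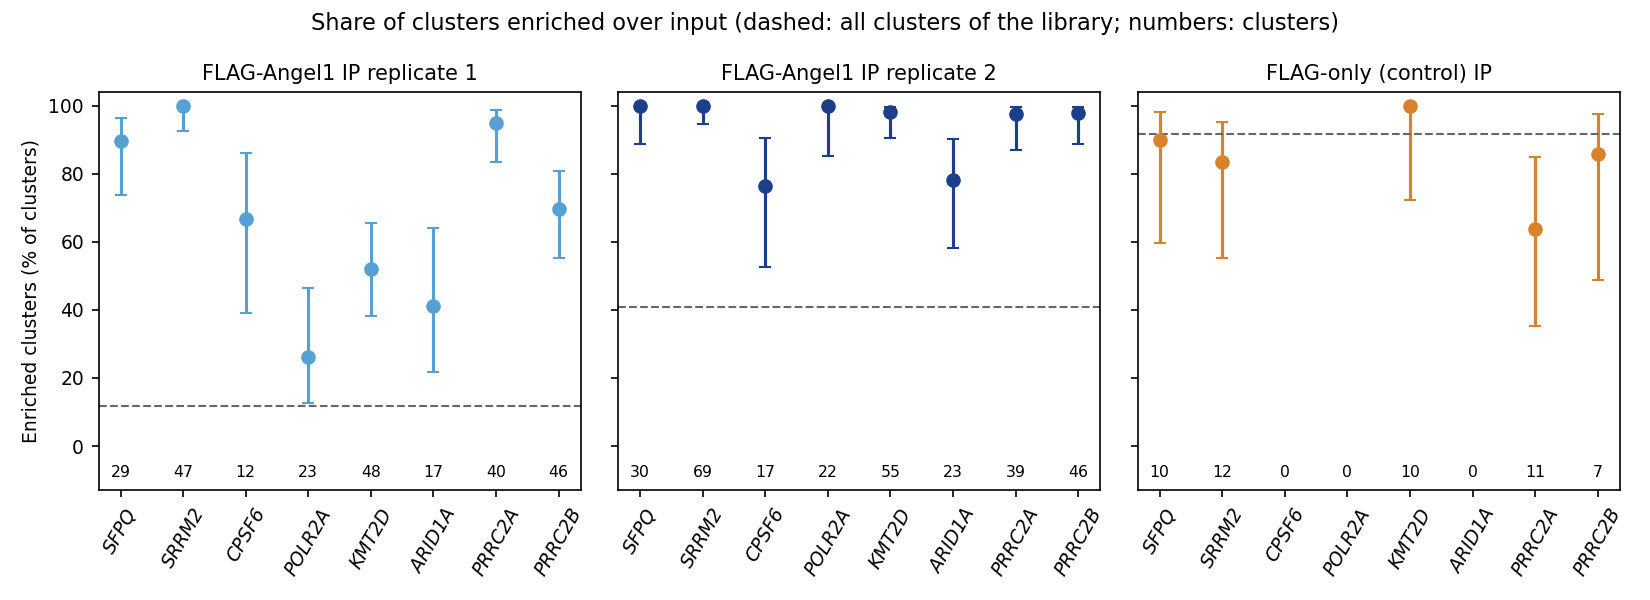
Enriched clusters as a percentage of all clusters in each gene and IP, with Wilson 95% intervals as bars, the number of clusters below each point, and the share over all clusters of the library as a dashed line. In replicate 1 the shares ran from 26.1% for POLR2A to 100% for SRRM2, all above the library's 11.7%, and CPSF6, POLR2A and ARID1A had no control clusters.

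Reproducible peaks numbered 70 in the 8 genes, of 2243 in the whole series (3.12%). Clusters that took part in them were 103 of 262 in replicate 1 (39.3%, against 3.20% of all clusters) and 118 of 301 in replicate 2 (39.2%, against 3.54%). SRRM2 held 18, PRRC2A 16, PRRC2B 13, SFPQ 9, KMT2D 8, ARID1A 3, CPSF6 2 and POLR2A 1. The peaks of other genes were not counted, and the shares of clusters in peaks were not compared at equal numbers of reads. With the lower log2 fold of the replicates taken for each peak, the median was 2.03, against 2.07 over all reproducible peaks. The median width was 109 nt, against 123 nt. When a log2 fold of at least 3 was required in both replicates, 1 peak was left, in PRRC2B. Where a peak held several clusters of a replicate, the cluster with the highest log2 fold gives the value below.

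The log2 folds of a peak in the replicates had overlapping 95% intervals in all but 6 of the 70 peaks, and in 41 peaks both intervals lay above a log2 fold of 1. The peaks were chosen by P and log2 fold in both replicates, which favours high folds. Intervals that rest on few input reads are wide and overlap easily. Replicate 2 had the higher log2 fold in 55 of the 70.

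The share of a gene's interval covered by enriched clusters ordered the genes differently from the number of peaks. SRRM2 came first with 14.1% in replicate 1 and 20.2% in replicate 2. PRRC2A had 11.4% and 11.5%, and SFPQ had 10.1% and 15.3%. KMT2D followed with 6.35% and 7.04%. CPSF6 (2.62% and 2.89%), PRRC2B (2.33% and 2.55%), POLR2A (1.91% and 3.14%) and ARID1A (0.898% and 1.35%) were covered least. These intervals include introns, which were not separated from exons here.

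**Figure D2:**
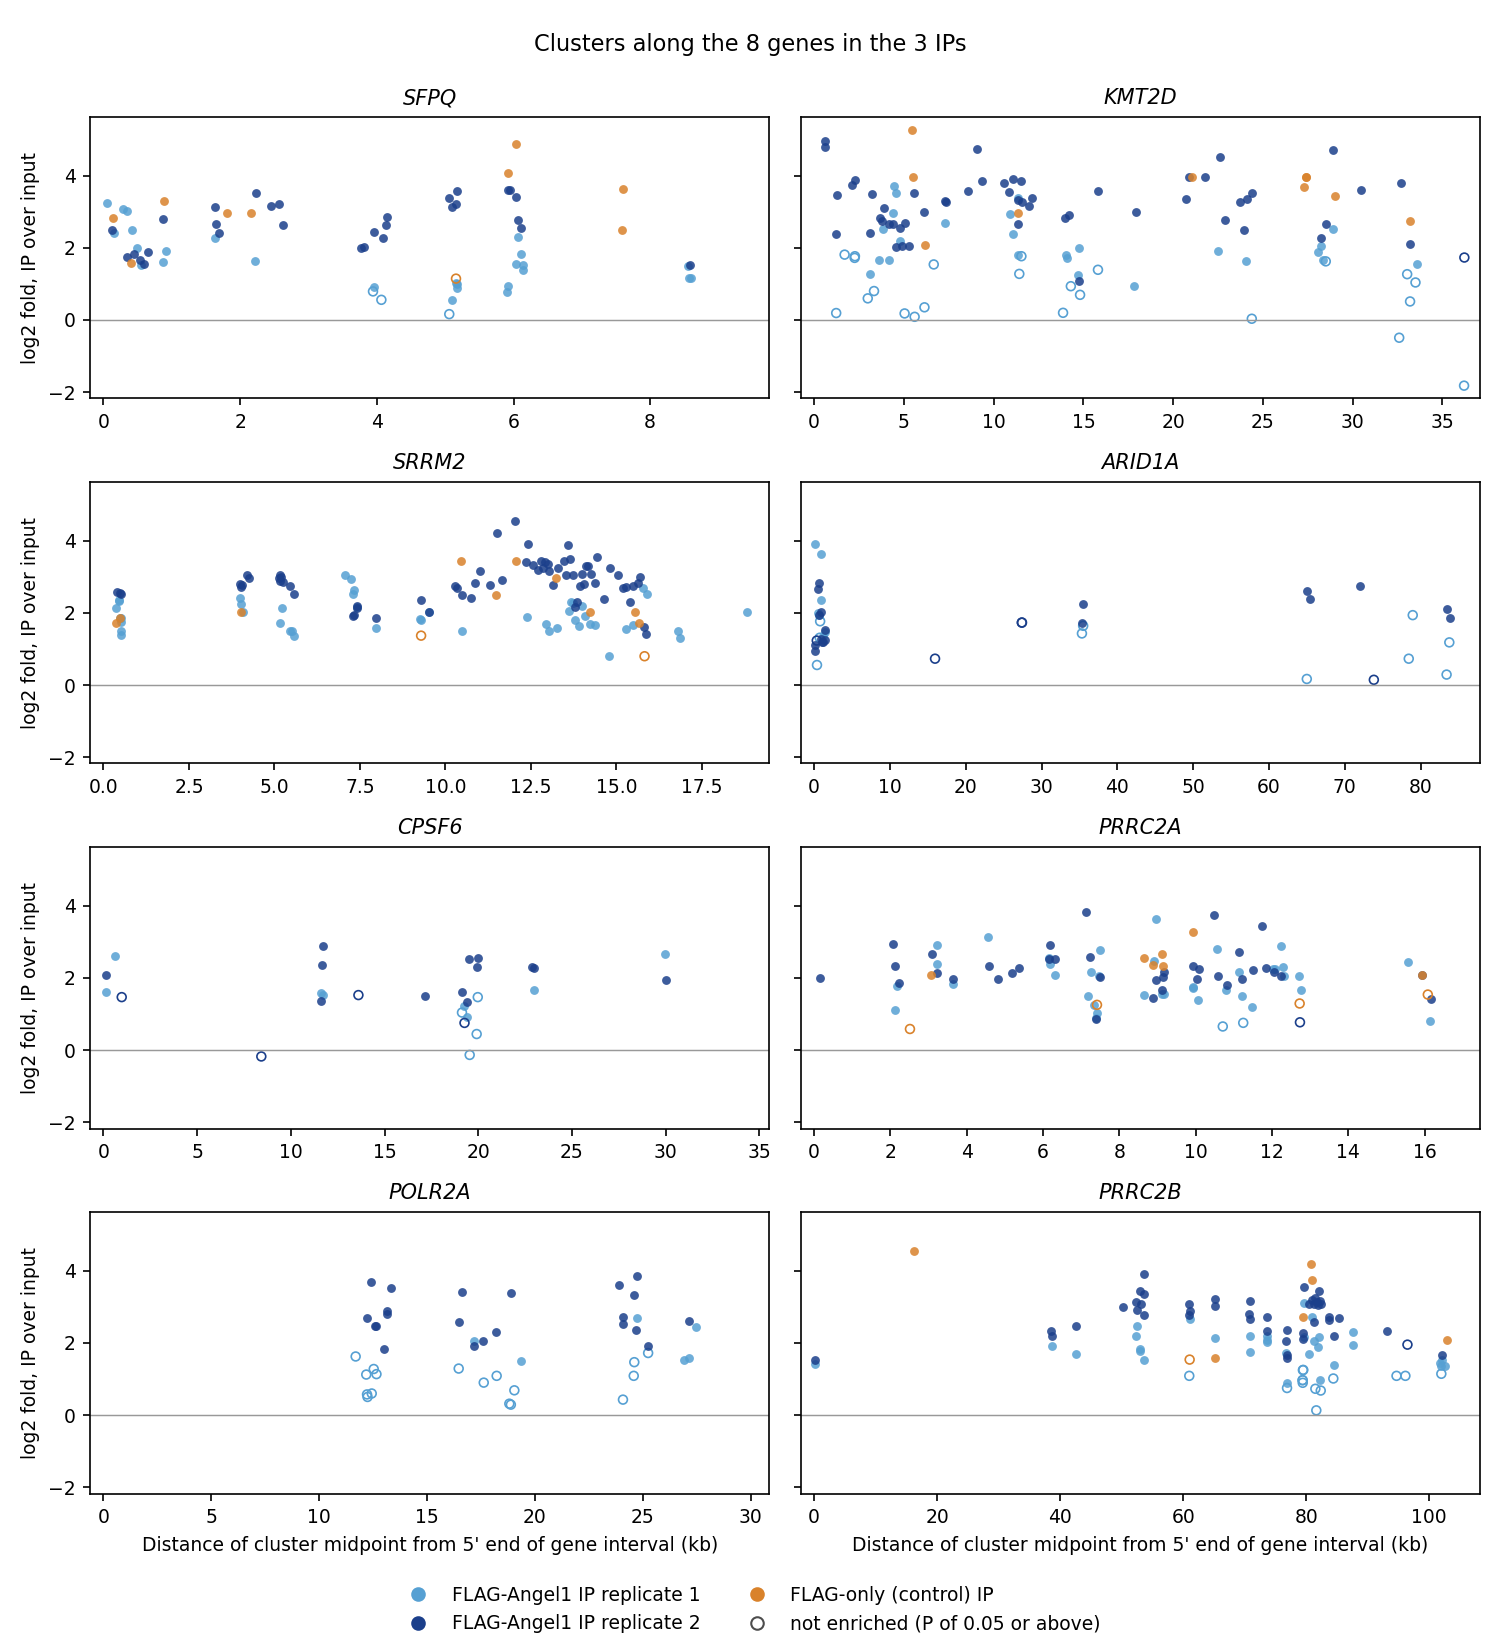
Log2 fold of IP over input for every cluster of the 8 genes against the distance of its midpoint from the 5′ end of the gene interval in kb, in FLAG-Angel1 replicates 1 and 2 and the FLAG-only control. Filled points are enriched and open points are not. Clusters of SRRM2 crowd between 10 and 16 kb in replicate 2, those of ARID1A gather near the 5′ end, and POLR2A has none before 11 kb.

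SFPQ, a splicing factor that is also a core protein of paraspeckles, held clusters that rested on some of the largest numbers of reads. The 29 clusters of replicate 1 had a lowest, median and highest log2 fold of 0.16, 1.53 and 3.24, on a median of 227 IP reads and up to 1717. The 30 clusters of replicate 2 had 1.52, 2.64 and 3.61, on a median of 91.5 IP reads and up to 321. Enriched were 26 clusters in replicate 1 and all 30 in replicate 2. In the control, 9 of 10 SFPQ clusters were enriched.

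The reproducible peak of SFPQ with the largest lower log2 fold lay at chr1:35658546-35658726 on the minus strand, centred 113 nt from the 5′ end of the interval. Its log2 fold was 3.24 in replicate 1 (753 IP reads over 17 input reads, interval 2.55 to 4.02) and 2.48 in replicate 2 (293 over 58, interval 2.07 to 2.91). An enriched control cluster with a log2 fold of 2.83 (22 over 48, interval 2.03 to 3.58) overlapped it, so that the control stood between the replicates. Enriched clusters were frequent at this end of the gene, and the densest 1000 nt held 592 enriched nt in replicate 1 and 639 in replicate 2. Within 2 kb of the 5′ end, 10 of 26 enriched clusters of replicate 1 were found, beside 10 of 30 of replicate 2 and 4 of 9 control clusters. Of the 9 reproducible SFPQ peaks, 5 overlapped an enriched control cluster, the largest share among the genes. The highest control value of the gene, a log2 fold of 4.89 on 21 IP reads over 11 input reads (interval 3.77 to 6.09), lay at chr1:35652708-35652724 and overlapped a reproducible peak of log2 fold 2.29 and 3.41 in the respective replicates.

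SRRM2, a large serine- and arginine-rich scaffold of nuclear speckles and the spliceosome, was the gene with most enriched clusters and most reproducible peaks. Every cluster was enriched, 47 in replicate 1 and 69 in replicate 2, with at least 106 and 63 IP reads each. The lowest, median and highest log2 folds were 0.82, 1.84 and 3.04 in replicate 1 and 1.41, 2.83 and 4.54 in replicate 2. Between 10 and 16 kb from the 5′ end, bounds chosen after the clusters were seen, lay 19 of the 47 enriched clusters in replicate 1, 47 of 69 in replicate 2 and 7 of 10 for the control. In replicate 1, 25 of the 47 lay in the 5′ 50% of the interval. In the densest 1000 nt, at chr16:2815767-2816766, enriched clusters covered all 1000 nt in replicate 2, in 15 clusters. In replicate 1, 865 nt of nearly the same window were covered, in 9 clusters. Since many of these clusters directly abut each other, their number also depends on how the authors' pipeline divided the reads.

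The SRRM2 peak with the largest lower log2 fold was a narrow one of 2 nt at chr16:2806335-2806336, which was listed as a cluster with the same ends in both replicates. It had log2 folds of 2.41 (626 over 25, interval 1.84 to 3.05) and 2.80 (158 over 25, interval 2.19 to 3.48), against 2.01 in the control (6 over 23). A broader peak of 195 nt near the 5′ end, at chr16:2802654-2802848, had 2.36 (1107 over 46, interval 1.93 to 2.81) and 2.59 (250 over 46, interval 2.13 to 3.07), against 1.86 in the control (11 over 47, interval 0.76 to 2.83). The control value was below both replicates at either peak, with intervals that overlapped. Within the dense region, the peak at chr16:2815847-2816090 had log2 folds of 2.30 and 3.87 and no control cluster over it. In all, 6 of the 18 peaks of SRRM2 overlapped an enriched control cluster. The 2 nt peak directly abutted another of these, at chr16:2806337-2806425, which had the same control log2 fold of 2.01 over it.

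CPSF6, a subunit of cleavage factor I in mRNA 3′ end processing, held few clusters and none in the control. In replicate 1, 8 of 12 clusters were enriched, with log2 folds from -0.13 through a median of 1.49 to 2.67. In replicate 2, 13 of 17 were enriched, with log2 folds from -0.18 through 1.95 to 2.88. Its 2 reproducible peaks lay far apart. The peak at chr12:69656204-69656375 had log2 folds of 1.67 (150 over 10, interval 0.75 to 2.76) and 2.28 (57 over 13, interval 1.39 to 3.27). The other, at chr12:69633354-69633521 and 120.5 nt from the 5′ end of the interval, held most reads of the gene, with log2 folds of 1.60 (371 over 26, interval 1.03 to 2.23) and 2.07 (76 over 20, interval 1.34 to 2.86). Both were low next to the median of 2.07 over all reproducible peaks, taking the lower replicate.

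POLR2A, which encodes the largest subunit of RNA polymerase II with its repetitive C-terminal domain, had the widest gap between the replicates in the share of enriched clusters. In replicate 1, 6 of 23 clusters were enriched (26.1%, interval 12.5% to 46.5%), and 1 passed a P of 0.001. In replicate 2, all 22 were enriched and 18 passed a P of 0.001. The log2 folds ran from 0.29 through a median of 1.14 to 2.69 in replicate 1 and from 1.82 through 2.65 to 3.85 in replicate 2. The IP reads per cluster had medians of 42 in replicate 1 and 27 in replicate 2. The median input reads were 4 and 4.5, although the input library was much smaller in replicate 1. Whether the small input of replicate 1 lowered its share of enriched clusters was not tested.

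No POLR2A cluster lay in the first 11 kb of the interval in any IP. From 11 to 20 kb, 2 of 15 clusters were enriched in replicate 1 and 14 of 14 in replicate 2. From 23 to 28 kb, 4 of 8 and 8 of 8 were. These bounds were chosen after the clusters were seen. The only reproducible peak, at chr17:7412331-7412467, had log2 folds of 2.69 (91 over 3, interval 1.10 to 4.99) and 3.85 (52 over 4, interval 2.40 to 5.77). It lay at 81.7% of the interval from the 5′ end.

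KMT2D, a histone H3 lysine 4 methyltransferase, had the highest median log2 fold of the 8 genes in replicate 2. There, 54 of 55 clusters were enriched, with log2 folds from 1.07 through a median of 3.27 to 4.95. In replicate 1, 25 of 48 were enriched (52.1%, interval 38.3% to 65.5%), with log2 folds from -1.82 through 1.64 to 3.72. These clusters were shallow, with median IP reads of 62 in replicate 1 and 41 in replicate 2 and at most 160 and 85. Input values were low as well, with a median of 4 in replicate 1, and 4 of its enriched clusters stood on an input value of 1.

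Of the enriched KMT2D clusters, 18 of 25 in replicate 1 and 39 of 54 in replicate 2 lay in the 5′ 50% of the interval. The peak with the largest lower log2 fold, at chr12:49441768-49441852 on the minus strand, had values of 2.69 (91 over 3, interval 1.10 to 4.99) and 3.29 (62 over 7, interval 2.16 to 4.66). A peak at chr12:49444670-49444755 reached a log2 fold of 3.72 in replicate 1 on 62 IP reads over an input value of 1 (interval 1.19 to 9.05) and 2.66 in replicate 2 on 63 over 11. The first of these intervals was wide, as the fold rested on an input value of 1. None of the 8 reproducible peaks overlapped an enriched control cluster, although the control listed 10 clusters in KMT2D, all enriched. The control clusters rested on 3 to 7 IP reads each. The highest, at chr12:49443644-49443692, had a log2 fold of 5.28 from 5 reads over 2 (interval 2.66 to 8.67), above every FLAG-Angel1 cluster of the gene.

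ARID1A, the DNA-binding subunit of SWI/SNF chromatin remodelling complexes, had its enriched clusters at the 5′ end. In replicate 1, 7 of 17 clusters were enriched, and all 7 had their midpoints between 155 and 1387.5 nt from the 5′ end of an interval of 86080 nt. In replicate 2, 18 of 23 were enriched, 11 of them within 2 kb of the 5′ end, with the last at 97.5% of the interval. The log2 folds ran from 0.17 through a median of 1.48 to 3.90 in replicate 1 and from 0.14 through 1.73 to 2.82 in replicate 2. The densest 1000 nt held 90.0% of all enriched nt of the gene in replicate 1 and 57.8% in replicate 2. By comparison, over all 8 genes 28 of 189 enriched clusters of replicate 1 and 31 of 289 of replicate 2 lay within 2 kb of the 5′ end.

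All 3 reproducible peaks of ARID1A lay in this stretch, centred 570.5 to 1122.5 nt from the 5′ end. The peak at chr1:27023334-27023420 had log2 folds of 3.64 (117 over 2, interval 1.75 to 6.70) and 2.03 (48 over 13, interval 1.12 to 3.04). That at chr1:27022968-27023217 had 2.00 (113 over 6, interval 0.83 to 3.48) and 2.82 (32 over 5, interval 1.45 to 4.54). The deepest, at chr1:27023538-27023751, had 1.35 (228 over 19, interval 0.67 to 2.11) and 1.20 (56 over 27, interval 0.51 to 1.92). The order of the replicates differed between the peaks, and the intervals overlapped at each. No control cluster was listed in the gene.

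PRRC2A, a proline-rich coiled-coil protein that binds RNA, held 16 reproducible peaks in an interval of 17105 nt. Enriched were 38 of 40 clusters in replicate 1 and 38 of 39 in replicate 2. The log2 folds ran from 0.65 through a median of 1.93 to 3.64 in replicate 1 and from 0.77 through 2.14 to 3.82 in replicate 2, so that the replicates lay closer together than in most of the other genes. The highest lower log2 fold was found at chr6:31594570-31594639, with 2.55 (138 over 5, interval 1.30 to 4.20) and 2.90 (54 over 8, interval 1.82 to 4.18). At chr6:31592990-31593068 the values were 3.14 (83 over 2, interval 1.24 to 6.21) and 2.33 (68 over 15, interval 1.50 to 3.24). Peaks were spread between 18.9% and 71.5% of the interval. The control had 11 clusters here, of which 7 were enriched, and all 7 overlapped an enriched FLAG-Angel1 cluster. Only 1 reproducible peak overlapped any of the 7, and it overlapped 2 of them. The strongest control cluster, at chr6:31598368-31598397, had a log2 fold of 3.28 (10 over 16, interval 1.97 to 4.50).

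PRRC2B, its paralog, had its enriched clusters mostly toward the 3′ end of a longer interval of 106099 nt. In replicate 1, 32 of 46 clusters were enriched, with log2 folds from 0.13 through 1.61 to 3.11. In replicate 2, 45 of 46 were, with log2 folds from 1.52 through 2.79 to 3.90. The median position of enriched clusters was 72.4% of the interval in replicate 1 and 72.3% in replicate 2. The 6 enriched control clusters had a similar median position, 75.5%, so this position was not particular to FLAG-Angel1. Between 76 and 86 kb, bounds chosen after the clusters were seen, 11 of 21 clusters were enriched in replicate 1 and 21 of 21 in replicate 2. In the control, 3 of 3 were enriched there.

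The peak at chr9:134348992-134349111 had the largest lower log2 fold among all 70 peaks of the 8 genes, with 3.11 in replicate 1 (81 over 2, interval 1.21 to 6.18) and 3.54 in replicate 2 (137 over 13, interval 2.72 to 4.49). A control cluster of log2 fold 2.73, from 3 reads over 7 (interval 0.15 to 4.86), overlapped it. The next peak, at chr9:134350393-134350555, was deeper, with 2.73 (249 over 8, interval 1.73 to 3.95) and 3.19 (124 over 15, interval 2.41 to 4.07). Over it, the control reached 3.75 (13 over 15, interval 2.56 to 4.92), above both replicates with overlapping intervals. All 13 reproducible peaks of PRRC2B had the higher log2 fold in replicate 2. PRRC2A and PRRC2B thus had similar numbers of clusters and peaks, while the position and the difference between replicates differed, as single values without a test.

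The control IP listed more of its clusters in these genes than the FLAG-Angel1 IPs did. They made up 0.875% of the control clusters, 0.255% of those of replicate 1 and 0.310% of those of replicate 2. The control clusters lay in SFPQ (10), SRRM2 (12), KMT2D (10), PRRC2A (11) and PRRC2B (7). Of the 50, 35 overlapped a FLAG-Angel1 cluster, and of the 42 enriched ones, 28 overlapped an enriched FLAG-Angel1 cluster. They rested on 3 to 25 IP reads, and 29 of them on at most 5.

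Of the 70 reproducible peaks, 15 overlapped an enriched control cluster (21.4%, interval 13.4% to 32.4%), against 17.2% of all 2243 (interval 15.7% to 18.8%), a difference within counting error. Among enriched clusters, 30 of 189 of replicate 1 (15.9%, interval 11.4% to 21.8%) and 34 of 289 of replicate 2 (11.8%, interval 8.54% to 16.0%) overlapped one, against 8.04% and 3.92% over all enriched clusters. The control value of a peak was the highest log2 fold of the enriched control clusters over it. Over the 15 peaks, these values ran from 1.57 through a median of 2.66 to 4.89. They were below both replicates in 7 peaks, between them in 3 and above both in 5. This count did not take the intervals into account. Whether the FLAG-Angel1 values at these 15 peaks include signal retained without the fusion protein was not tested.

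Control depth limits what the absence of a cluster means. The control IP had about 210000 reads, and no cluster of resolved reads on fewer than 3 was listed in it. Scaled to its size, the deepest cluster of replicate 2 corresponded to 4.30 reads in POLR2A, 4.63 in ARID1A and 6.28 in CPSF6, against 26.5 in SFPQ and 28.8 in SRRM2. The deepest cluster of replicate 1 corresponded to 7.79 reads in POLR2A, 14.1 in ARID1A and 22.9 in CPSF6, against 106 in SFPQ and 107 in SRRM2. At the deepest clusters of the 3 genes without control clusters, a background equal to FLAG-Angel1 would thus have an expected count above 3 reads. By replicate 2 it would be 4.30 to 6.28 reads, and the reads drawn at such an expected count can fall below 3. By replicate 1 it would be 7.79 reads in POLR2A, but well above 3 in ARID1A and CPSF6, at 14.1 and 22.9. A count of 3 reads need not suffice for a cluster to be listed. Whether such a background was present was not tested. A control level below 3 reads was not detectable.

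**Figure D3:**
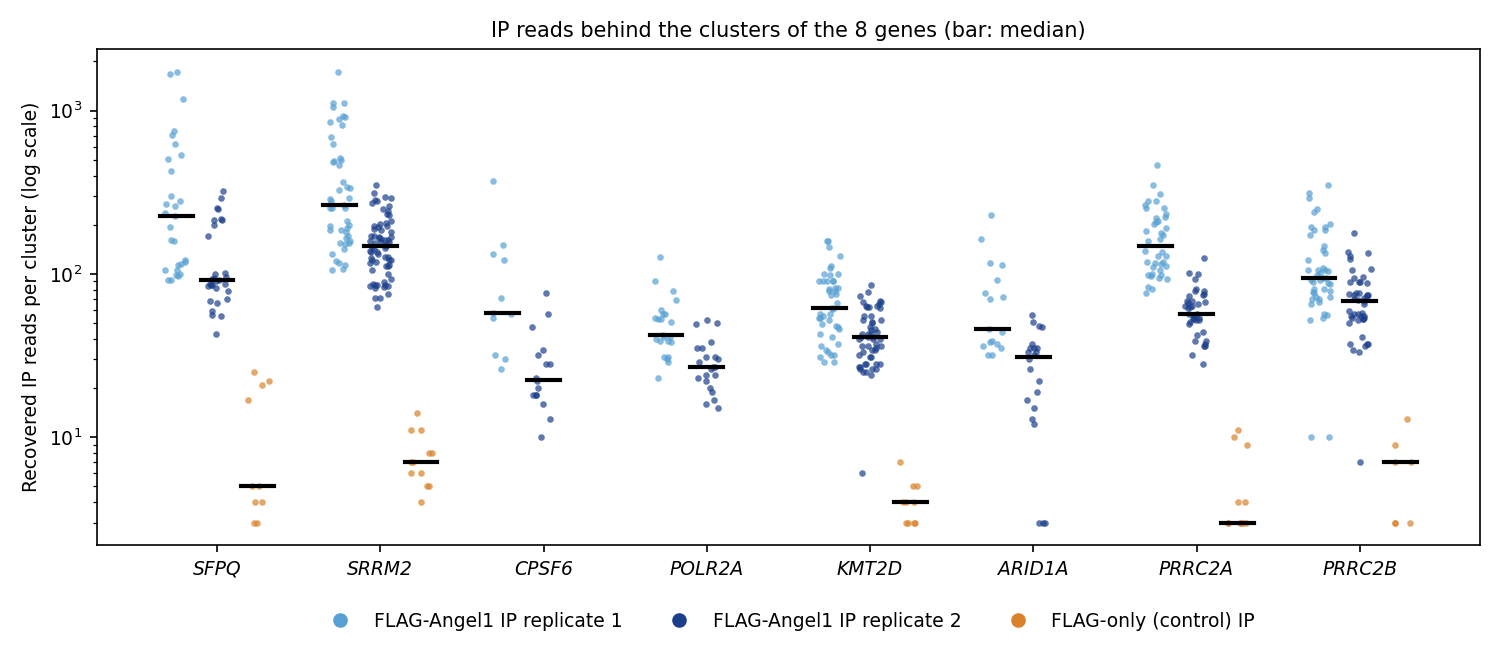
IP reads of every cluster with resolved reads, on a log scale, by gene and IP, with medians as black bars. Medians run from 42 to 263 reads in replicate 1 and from 22.5 to 148 in replicate 2, highest in SRRM2 in both, and control clusters rest on 25 reads or fewer.

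The enriched clusters of the replicates were compared by position. Of the 189 enriched clusters of replicate 1, 155 overlapped an enriched cluster of replicate 2 (82.0%), against 76.8% over the whole series. In the other direction it was 168 of 289 (58.1%), against 23.9%. These shares count an overlap of 1 nt and were not compared at equal numbers of reads. They fell to 50.8% and 33.2% when each cluster had to cover 50% of the other. The share was lowest in POLR2A, with 3 of 6 and 4 of 22, and in KMT2D for replicate 2, with 19 of 54. All 7 enriched ARID1A clusters of replicate 1 had an enriched partner.

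Clusters of replicate 1 were paired with the cluster of replicate 2 that overlapped them most, so that a cluster of replicate 2 could enter several pairs. Of these 205 pairs, 167 had the higher log2 fold in replicate 2 (81.5%). The median difference was 0.83 with an SD of 1.08, against 1.10 and 1.25 over the 54100 pairs of the whole series. Both clusters were enriched in 155 pairs, only that of replicate 2 in 46, only that of replicate 1 in 2, and neither in 2. By gene, the median difference was 1.33 in POLR2A, 1.17 in KMT2D, 1.09 in SFPQ, 1.00 in PRRC2B, 0.76 in SRRM2, 0.57 in CPSF6, 0.12 in PRRC2A and 0.01 in ARID1A. All 36 pairs of PRRC2B were higher in replicate 2, but 17 of 32 of PRRC2A and 6 of 11 of ARID1A. Over the 205 pairs, the Pearson correlation of the log2 folds was 0.01 and the Spearman correlation 0.02, against 0.22 and 0.18 over the series. The pooled value joined genes of opposite sign, with a Pearson correlation of 0.42 in PRRC2B (36 pairs) and 0.38 in PRRC2A (32 pairs), but -0.41 in SFPQ (28 pairs) and -0.39 in SRRM2 (39 pairs). It was 0.21 in KMT2D (31 pairs), -0.02 in POLR2A (17 pairs), -0.13 in CPSF6 (11 pairs) and -0.25 in ARID1A (11 pairs). Neighbouring clusters share an mRNA and may share reads, so these are descriptions of clusters and not of independent replicates.

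**Figure D4:**
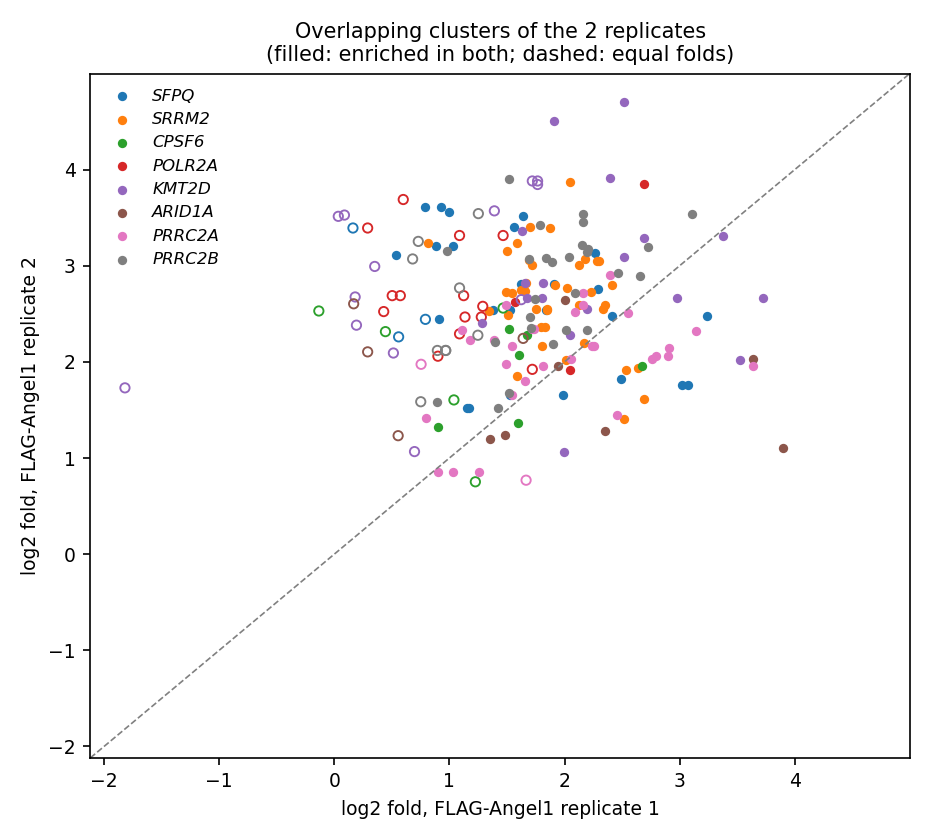
Log2 fold of IP over input in FLAG-Angel1 replicate 2 against replicate 1 for the 205 pairs of overlapping clusters, coloured by gene, with filled points enriched in both replicates and a dashed line of equal folds. Most points, 167 of 205, lie above the line, while those of PRRC2A and ARID1A lie on both sides of it.

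Clusters on the opposite strand of the 8 intervals were nearly absent. SRRM2 held 1 in each FLAG-Angel1 replicate, neither enriched, and the control held 0. Small RNA genes lie within some of the intervals by current RefSeq annotation, with SNORA38 and MIR6832 in PRRC2A, SNORD62A and SNORD62B in PRRC2B and MIR1279 in CPSF6. The lncRNA DDN-AS1 overlaps KMT2D, LOC124900417 overlaps ARID1A, and the pseudogene LOC124902290 lies in PRRC2B. Their positions in GRCh37 were not used here, and clusters over them were counted with the larger gene where they shared its strand.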

How the data were processed

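Per the labels and the study's methods, clusters were called by the authors in each IP separately on GRCh37 and normalized to the size-matched input. The authors deposited, for each cluster, its enrichment in the IP relative to input as a log2 fold, and the −log10 of its P, at most 400. The submitters' processing notes name cutadapt, STAR, SAMtools and UMI-tools, with versions not given in the sources used here. The 8 genes and the lists were chosen with earlier results of these data known. For each gene, the reproducible peak with the largest lower log2 fold was named, with control clusters of the largest log2 fold; further peaks were named after their values were seen.

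Reads were recovered by setting the most frequent log2 fold to 3 IP reads over an input value of 1, reading other folds as ratios of whole numbers (relative tolerance 1e-09), and choosing the multiple whose P, by Fisher's exact test where a count was below 5 and otherwise the chi-square test with Yates' correction, matched the authors' P (relative tolerance on −log10 P 0.0005). On 14027 simulated clusters, 98.57% were resolved and 0 wrongly, and all 900 planted overlaps were found. The simulated lists were built with 3 over 1 as the most frequent fold and with the same tests for P. They thus check the calculation, and not whether the deposited lists follow these settings. Reads can span abutting clusters, so no sums over genes are given. Positions are midpoints along the interval from its 5′ end. Exons, introns and sequences were not analysed here, since no GRCh37 genome or annotation was used, nor were protein sequences. Python 3.11.15, numpy 2.4.6, pandas 2.3.3, scipy 1.17.1 and matplotlib 3.10.9 were used. Alternatives covered thresholds, overlap, joining of clusters, strand and single genes.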

Additional observations from a re-analysis of the deposited data

How the results depend on the processing

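Of 64 alternative values, 43 stayed close to the main value and 21 moved. Close meant within 1.5 times of a count or within the Wilson interval of a share. For a median log2 fold or position, it meant within 1 SD over clusters. A change of sign was found in 0, but counts, shares and positions cannot be negative, so only a median log2 fold could change sign. At a P of 0.001, enriched clusters fell to 121 in replicate 1 (46.2%) and 20 in the control (40%), and the share in replicate 2 to 88.4%. When the log2 fold also had to reach 3, replicate 1 kept 11, replicate 2 kept 100 and the control kept 15. These settings admit fewer clusters by construction. Joining abutting clusters gave 122 in replicate 1, by merging them. The share in replicate 2 was 99.3% among clusters of at least 20 recovered IP reads, which was chosen after the data were seen.

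The 70 reproducible peaks became 106 at a P of 0.05 and 1 when the log2 fold had to reach 3 in both replicates. Joining abutting peaks gave 65. With 1 replicate left out and no reproducibility required, the number of clusters past a P of 0.001 ranged from 121 to 266, the latter without replicate 1. Reciprocal overlap of 50% gave 50.8% for enriched clusters of replicate 1 found in replicate 2 and 33.2% in the other direction, and 70.6% of those of replicate 2 overlapped any cluster of replicate 1.

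The median position over all enriched clusters was 53.4% of the interval for replicate 1, 53.9% for replicate 2 and 59.1% for the control. It was 1.00% and 1.495% for ARID1A alone in the respective replicates, 85.3% for POLR2A alone in replicate 1 and 22.55% for SFPQ alone in the control. The other medians by gene lay within 1 SD of the pooled value, such as 31.3% for KMT2D and 52.8% for PRRC2A in replicate 1. The proline content around clusters was not run. No paired analysis was possible because no groups were tested against each other, and the inputs entered only through the authors' folds. A small input limits the precision of replicate 1, and a small IP that of the control.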
